A study of Arabidopsis thaliana with 12 samples.

Results

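In Arabidopsis thaliana, 5 signalling genes were compared between roots of the kn09 mutant and wild-type (WT) roots: the protein kinase genes ATSIK, AT1G53050 and AT2G31800, the protein phosphatase 2A (PP2A) regulatory subunit gene AT3G54930, and the calmodulin-like gene CML30. They were matched by locus (ATSIK is AT3G08760 and CML30 is AT2G15680). Each lay on 1 feature of the array that the platform annotation assigns to that gene alone, so the 5 genes are 5 of 692 features with 1 gene and of 3439 features in all. They were chosen with the kn09 and WT values of these same samples known, so those values are given as a description and no test is given for them. RefSeq names CML30 as calmodulin-like 30; the roles of the other 4 are those given with the gene set. No gene name was checked against probe sequences, so a value may belong to another gene than the one named. Pairs of features that share an annotation had unrelated log2 differences (r = -0.06 across 94 pairs, whose features share samples and normalization). These pairs were not limited to bright or changed features, so this r cannot tell wrong names from noise.

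The array measured total RNA of 12 samples, 6 of kn09 and 6 of WT. Both genotypes are in the Wassilevskija background, and all roots had received MS with 100 mM glucose, for a period of 48 h. Per the labels kn09 reacts too strongly to proline and cannot catabolise it in mitochondria; they give neither the mutated gene nor how many lines were used. They number the samples 1 to 6 within a genotype without saying whether these are separate cultures or repeat readings, so any p-value reflects sample-to-sample spread that could be technical alone.

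Protein kinases add phosphate groups to other proteins and phosphatases remove them. PP2A is a serine/threonine phosphatase built of a scaffold, a catalytic subunit and an exchangeable regulatory subunit, and the regulatory subunit directs the enzyme to its substrates. Calmodulin-like proteins bind calcium through EF hands and pass calcium signals on to partner proteins, among them kinases. In plant roots these proteins relay signals of osmotic stress, sugars, hormones and microbes. ATSIK has been described in Arabidopsis as a kinase induced by osmotic stress.

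Deposited intensities are on a linear scale relative to the brightest feature of each sample, which stands at 100. The median feature stood at 0.102 to 0.121 in kn09 samples and at 0.139 to 0.227 in WT samples, and 398 to 522 features per kn09 sample were listed at 0, against 153 to 235 per WT sample. Over all features the log2 difference (kn09 minus WT) had a median of -0.85 on the deposited scale and of -0.06 after quantile normalization. Values below are therefore given as deposited and as normalized, where normalized means quantile normalized between samples and put on the log2 scale. None of the 25 root marker genes looked for lay on a feature with 1 gene, so the root label could not be checked with them, nor did any of 3 genes of proline breakdown. Of 13 green shoot markers 3 could be read, LHB1B2, PSBW and PSBY, and none of the 3 was at 0. The summed deposited intensity of the 3 markers was 68.4 to 86.8 in kn09 samples and 59.4 to 78.1 in WT samples, and its part in the differences below was not tested.

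The 3 kinase genes were higher in kn09, and AT3G54930 and CML30 were lower, except that with median scaling AT3G54930 had a log2 difference of 0.0131. After normalization the kn09 level was 2.48-fold that of WT for ATSIK, 4.40-fold for AT1G53050 and 3.65-fold for AT2G31800. For CML30 the WT level was 2.14-fold that of kn09, and for AT3G54930 it was 1.71-fold. All 5 genes passed an adjusted p of 0.05 in the limma fit over all features, as 12.8% of all features and 11.3% of the features with 1 gene did. By direction 3 of the 5 were called higher in kn09, as 6.48% of features were, and 2 lower, as 6.31% were. This is how the genes came to be chosen, and nothing is read from it. AT2G31800 was no longer called, leaving 4 of the 5, when any single one of kn09 samples 2 to 6 or WT samples 3, 5 and 6 was left out, on the intensities as deposited, or with the replicate number as a block. Of all 3439 features 440 were called as reported and 192 to 279 with 1 of those samples left out. As deposited 1257 were called, and 211 with the replicate block. With median scaling, where 650 features were called, AT3G54930 lost its call. With consecutively numbered samples as a random block 82 features were called. There AT1G53050 and AT2G31800 lost their calls, and 3 of the 5 stayed called. With the local running median of neighbouring features removed 342 features were called. There AT2G31800, AT3G54930 and CML30 lost their calls, and 2 of the 5 stayed called. With means of consecutive samples limma called 16 features and 0 of the 5, and 554 features had an unadjusted p under 0.05. Nothing particular to the 5 genes is read from these counts. In these bulk samples fewer cells of a type and less RNA per cell cannot be told apart.

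**Figure D1:**
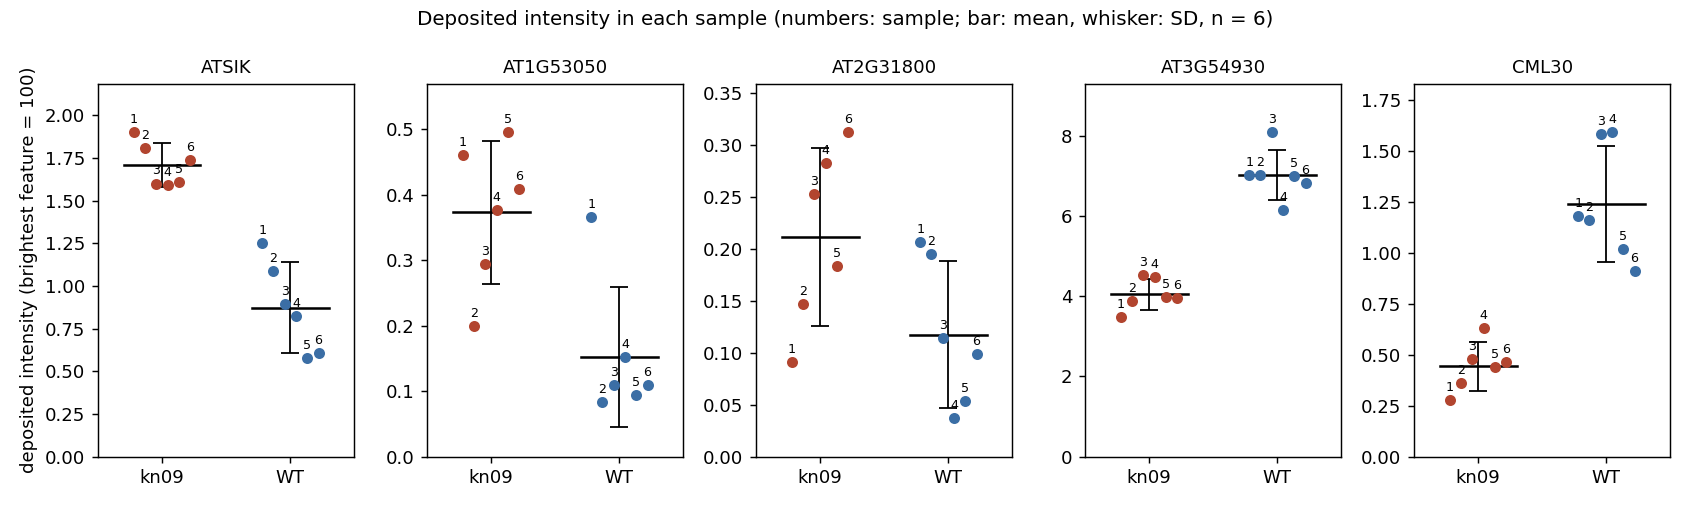
Deposited intensity (vertical axis, linear, brightest feature of a sample = 100) of the 5 genes in each sample, with kn09 left of WT. Points are samples, labelled by sample number, lines are means and whiskers SDs (n = 6); for ATSIK, AT3G54930 and CML30 no kn09 point lies within the WT range, while the points of AT1G53050 and AT2G31800 overlap.

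ATSIK had a deposited intensity between 1.59 and 1.90 in kn09 samples, with a median of 1.68, against 0.575 to 1.25 in WT samples, with a median of 0.858. All 6 kn09 samples lay above all 6 WT samples. The means were 1.71 ± 0.128 in kn09 and 0.873 ± 0.265 in WT (SD, n = 6 each). The kn09 samples lay close together, the highest being 1.19-fold the lowest, whereas the WT samples spread 2.17-fold. WT samples 1 and 2 were the highest of WT at 1.25 and 1.09, and WT samples 5 and 6 the lowest at 0.575 and 0.608. The normalized log2 difference was 1.31 ± 0.23 (SE), and without WT samples 1 and 2 it was 1.62 ± 0.17 (SE).

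AT1G53050, the second kinase gene, had a deposited intensity between 0.200 and 0.495 in kn09 samples, with a median of 0.393, against 0.0836 to 0.365 in WT samples, with a median of 0.110. The genotypes overlapped through 1 WT sample. WT sample 1 stood at 0.365, above kn09 samples 2 and 3 at 0.200 and 0.294, while the other WT samples reached no higher than 0.152. Of the kn09 samples 4 of 6 lay above every WT sample and 6 of 6 above the WT median. The means were 0.372 ± 0.109 in kn09 and 0.152 ± 0.107 in WT (SD, n = 6 each). The normalized log2 difference was 2.14 ± 0.41 (SE), and 2.51 ± 0.32 (SE) without WT sample 1.

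AT2G31800, the third kinase gene, varied widely between samples, its SD being 40.3% of the mean in kn09 and 59.8% in WT. Its deposited intensity lay between 0.0906 and 0.312 in kn09 samples, with a median of 0.218, and between 0.0374 and 0.206 in WT samples, with a median of 0.106. Here the genotypes overlapped broadly: WT samples 1 and 2, at 0.206 and 0.195, stood above kn09 samples 1, 2 and 5, at 0.0906, 0.147 and 0.183. The means were 0.211 ± 0.0852 in kn09 and 0.117 ± 0.0703 in WT (SD, n = 6 each). After normalization 5 of 6 kn09 samples lay above every WT sample, against 3 of 6 as deposited. The normalized log2 difference of 1.87 ± 0.52 (SE) had the widest error of the 5 genes. Without WT sample 4, the lowest at 0.0374, the difference was 1.44 ± 0.35 (SE). Without both WT samples 1 and 2 it was 2.52 ± 0.57 (SE).

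AT3G54930, the PP2A regulatory subunit gene, had a deposited intensity between 3.49 and 4.52 in kn09 samples, with a median of 3.97, and between 6.15 and 8.09 in WT samples, with a median of 7.01. All 6 kn09 samples lay below all 6 WT samples. The means were 4.05 ± 0.388 in kn09 and 7.02 ± 0.624 in WT (SD, n = 6 each), and in each genotype the SD was under 10% of the mean. The normalized log2 difference was -0.78 ± 0.14 (SE). As deposited the difference was -0.79, while the median over all features was -0.85 and that over the brightest 25% of features was -0.30. With each sample scaled to a common median in place of quantile normalization it was 0.0131 ± 0.19 (SE) and the genotypes overlapped. Whether this gene was lower in kn09 thus depends on how the samples are put on a common scale.

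CML30 had a deposited intensity between 0.278 and 0.629 in kn09 samples, with a median of 0.452, and between 0.911 and 1.59 in WT samples, with a median of 1.17. All 6 kn09 samples lay below all 6 WT samples, and the lowest WT sample, WT sample 6, was still above the highest kn09 sample, kn09 sample 4. The means were 0.442 ± 0.118 in kn09 and 1.24 ± 0.286 in WT (SD, n = 6 each). The normalized log2 difference was -1.10 ± 0.20 (SE). It was -1.50 as deposited, where the median of all features was -0.85, and -0.70 with median scaling, where the genotypes overlapped. Unlike that of AT3G54930, it was below 0 under every scaling tried.

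As a count, the deposited values of kn09 and WT did not overlap for 3 of the 5 genes, ATSIK, AT3G54930 and CML30, as for 16.7% of all features. The normalized values did not overlap for the same 3 genes, as for 8.2% of all features. The genes were chosen on this contrast, and nothing is read from these shares.

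The rank of a gene within its own sample does not depend on any scale factor. ATSIK stood at the 91.4th to 93.5th percentile of the features in kn09 samples and at the 80.1st to 89.1st in WT samples. AT1G53050 stood between 66.4 and 81.4 in kn09 and between 20.2 and 68.0 in WT, where the highest rank was that of WT sample 1 and the other WT samples were at or below 42.7. AT2G31800 stood between 46.2 and 74.7 in kn09 and between 10.5 and 48.8 in WT. AT3G54930 stood between 96.0 and 96.6 in kn09 and between 97.4 and 98.1 in WT, and CML30 between 73.3 and 83.3 in kn09 and between 85.9 and 90.4 in WT. Quantile normalization keeps the order of features within a sample, so these ranks carry the same information as the normalized values and are no further evidence. The shift of AT3G54930 was the smallest of the 5 in percentile points, at the bright end of the scale where ranks are crowded.

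**Figure D2:**
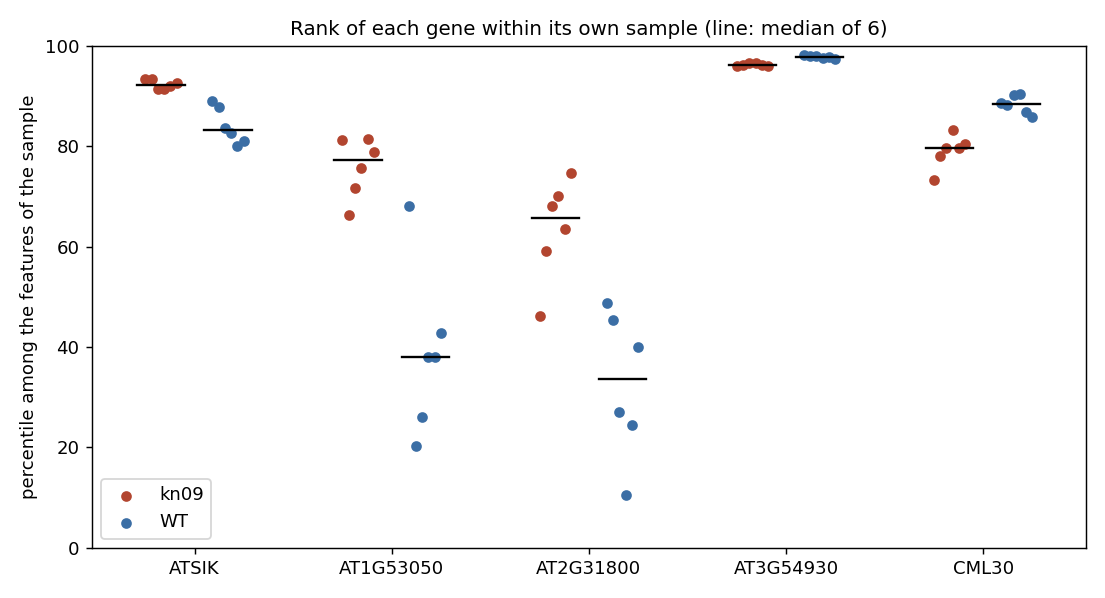
Percentile of each gene among the features of its own sample (vertical axis, 0 to 100), with kn09 left of WT for every gene. Points are samples and lines are medians of 6; AT1G53050 and AT2G31800 span wide ranges in WT, from 20.2 to 68.0 and from 10.5 to 48.8, while AT3G54930 stays between 96.0 and 98.1 in all samples.

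The ratio of 2 genes within a sample is likewise free of a scale factor, though not of an additive background. It is compared here only between samples, since the levels of different features cannot be set against each other. The ratio of ATSIK to CML30 was 2.53 to 6.83 in kn09 samples and 0.515 to 1.06 in WT samples, a mean log2 difference of 2.52. The ratio of ATSIK to AT3G54930 was 0.355 to 0.543 in kn09 and 0.0821 to 0.178 in WT, a mean log2 difference of 1.82. Both ratios were higher in every kn09 sample than in any WT sample. As deposited, ATSIK was higher in kn09 and the genes it was divided by were lower. The genes were chosen on this contrast, so the outcome was fixed by the choice and nothing is read from it.

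The other kinase genes gave ratios of the same direction, which likewise follows from how the genes were chosen. Nothing is read from the overlaps given for these ratios. AT1G53050 over CML30 was 0.551 to 1.66 in kn09 and 0.0692 to 0.310 in WT, and AT2G31800 over CML30 was 0.326 to 0.669 in kn09 and 0.0235 to 0.175 in WT, again without overlap. Over AT3G54930 both overlapped, with 5 of 6 kn09 samples above every WT sample for each. Among the kinase genes themselves, ATSIK over AT2G31800 was 5.59 to 20.9 in kn09 and 5.58 to 21.9 in WT, and AT1G53050 over AT2G31800 was 1.16 to 5.08 in kn09 and 0.428 to 4.05 in WT. CML30 over AT3G54930 was 0.0796 to 0.140 in kn09 and 0.133 to 0.259 in WT, with 5 of 6 kn09 samples below every WT sample. The mean log2 difference of the ratio of CML30 to AT3G54930 was -0.71. Both genes were chosen on this contrast, so nothing is read from it.

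**Figure D3:**
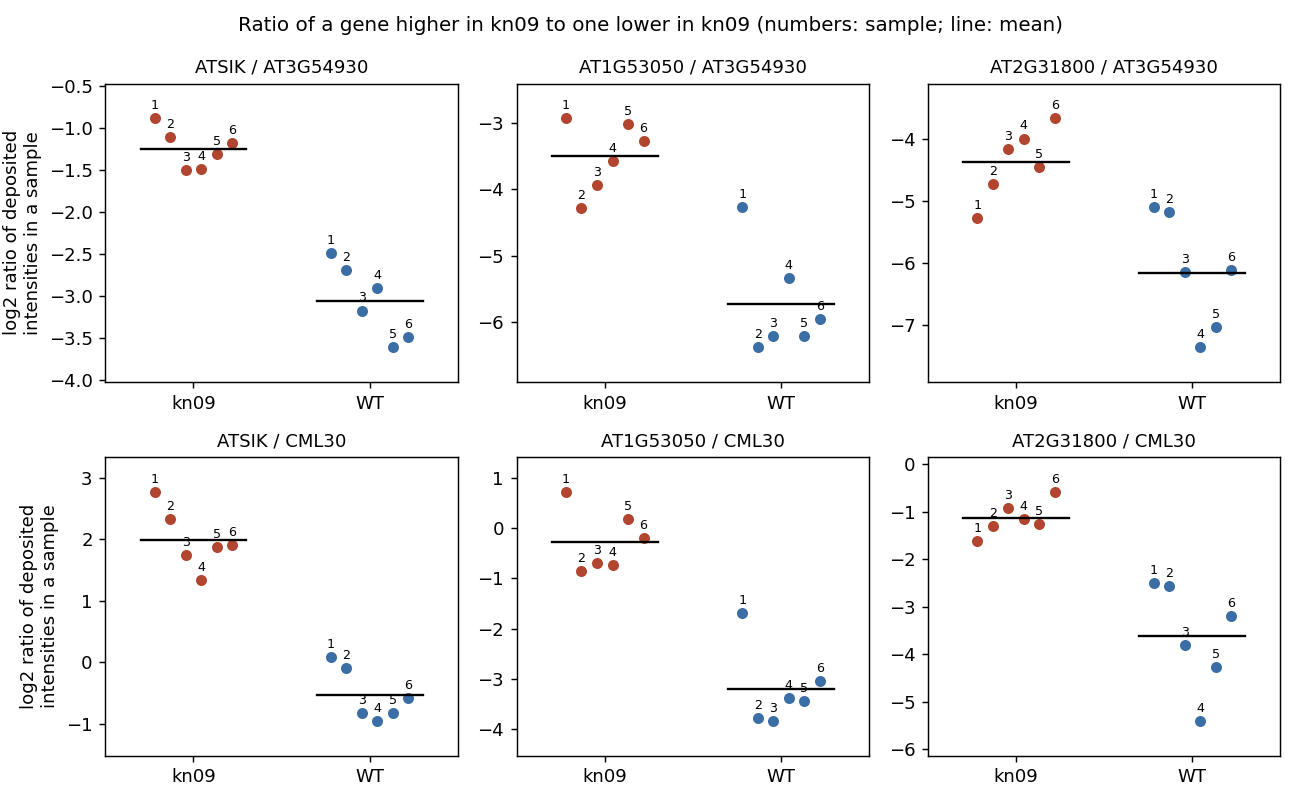
Log2 ratio of the deposited intensities of a kinase gene to AT3G54930 (upper row) or CML30 (lower row) within each sample, with kn09 left of WT. Points are samples labelled by number and lines are means; the 3 ratios to CML30 and that of ATSIK to AT3G54930 do not overlap between genotypes, and in the other 2 panels WT samples 1 or 2 reach the lowest kn09 samples.

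Within a genotype the 5 genes did not vary alike. WT samples 1 and 2 were the highest of WT for ATSIK and AT2G31800, and WT sample 1 alone for AT1G53050, whereas for CML30 WT samples 3 and 4 were highest at 1.58 and 1.59. In kn09, sample 1 was the highest for ATSIK at 1.90 and the lowest for AT2G31800, AT3G54930 and CML30, at 0.0906, 3.49 and 0.278. Deviations from the genotype means, over all 12 samples, correlated at r = 0.53 for CML30 and AT3G54930, 0.40 for ATSIK and AT3G54930 and 0.39 for AT2G31800 and AT3G54930. The other 7 pairs of genes had r between -0.18 and 0.33. Some consecutively numbered samples stood close, as kn09 samples 3 and 4 did for ATSIK (1.60 and 1.59) and WT samples 3 and 4 for CML30. Others stood apart, as WT samples 1 and 2 did for AT1G53050 (0.365 and 0.0836) and WT samples 3 and 4 for AT2G31800 (0.114 and 0.0374). These correlations describe 12 samples that share one normalization.

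**Figure D4:**
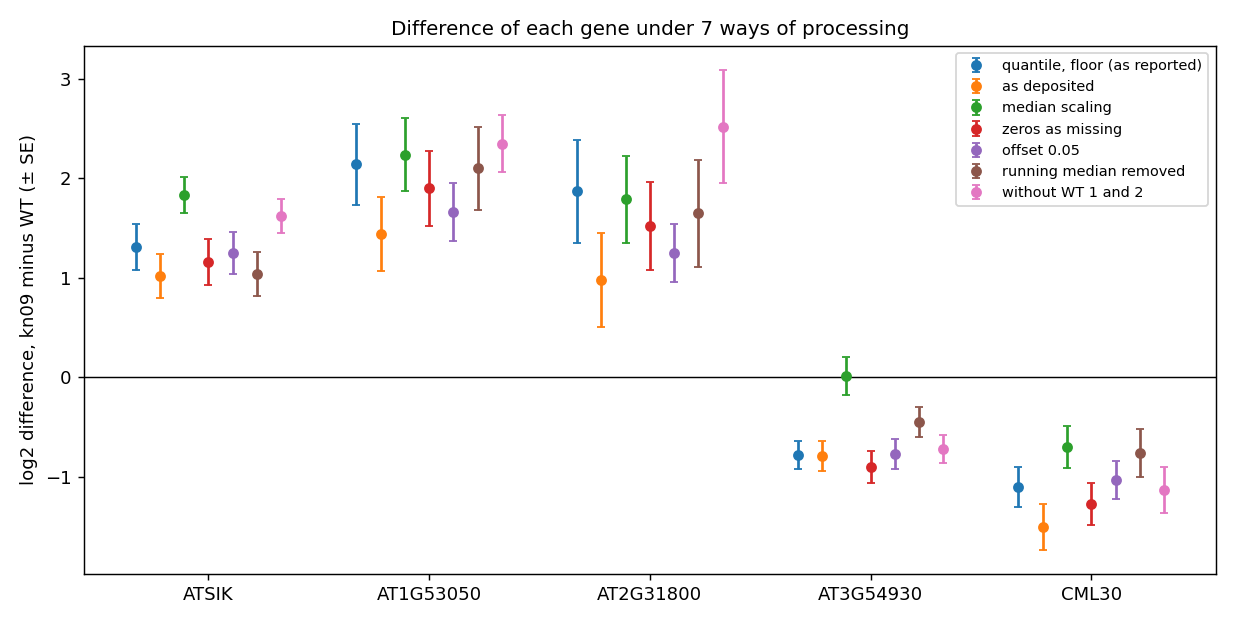
Log2 difference of each gene (vertical axis, kn09 minus WT, points with SE) under 7 ways of processing, including quantile normalization with a floor as reported. The 3 kinase genes lie above 0 and CML30 below 0 throughout, between 0.98 and 2.52 and between -1.50 and -0.70, while AT3G54930 lies at 0.0131 with median scaling.

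Features are listed in the deposited table in a fixed order, and the differences of those next to each gene are given beside its own. Among the 50 nearest features the median log2 difference was 0.21 for ATSIK, -0.10 for AT1G53050 and 0.24 for AT2G31800, and -0.21 for AT3G54930 and -0.30 for CML30. For 4 of the 5 genes, all but AT1G53050, this median thus had the sign of the gene itself and a smaller size; its part in the differences was not tested. With a running median over 51 neighbouring features removed in each sample, the difference was 1.04 for ATSIK, 2.1 for AT1G53050, 1.65 for AT2G31800, -0.45 for AT3G54930 and -0.76 for CML30. Under that setting the normalized values of CML30 overlapped between genotypes, and AT2G31800, AT3G54930 and CML30 were no longer called. Of all features 342 were called there, against 440 as reported.

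For each gene the 2 genes most like it in pattern were sought among 416 other genes above 0 in all samples, by Pearson's r of normalized log2 intensity over the 12 samples. This r includes the genotype difference, so r of the deviations from genotype means is given second. ATSIK was most like AT1G73470 (r = 0.964, deviations 0.804), whose deposited intensity averaged 0.554 ± 0.0674 in kn09 and 0.293 ± 0.102 in WT (SD, n = 6 each), and AT2G23160 (0.902 and 0.791). With AT2G23160 the r of ATSIK was -0.0624 within kn09 alone and 0.944 within WT alone, and with AT1G73470 it was 0.953 and 0.768. The deposited intensity of ATSIK spread 1.19-fold in kn09 and 2.17-fold in WT. An r over 6 kn09 samples in so narrow a range cannot tell whether the likeness to AT2G23160 was absent there. AT1G53050 was most like AT4G00170 (0.916 and 0.727), with deposited means of 0.859 ± 0.0945 in kn09 and 0.360 ± 0.0548 in WT (SD, n = 6 each), and AT3G16760 (0.852 and 0.561). AT2G31800 was most like AT1G72020 (0.923 and 0.880) and AT5G63390 (0.918 and 0.866). Within kn09 alone their r with it was 0.506 and 0.647, and within WT alone 0.947 and 0.906.

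Among the lower genes, AT3G54930 and CML30 were each among the 2 most like the other (0.928 and 0.527). CML30 was closest to AT1G62150 (0.935 and 0.690), with deposited means of 0.183 ± 0.0722 in kn09 and 0.676 ± 0.139 in WT (SD, n = 6 each). AT3G54930 was next closest to AT4G17440 (0.900 and 0.611), with deposited means of 0.0663 ± 0.0186 in kn09 and 0.204 ± 0.0645 in WT (SD, n = 6 each).

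Other signalling genes were looked for by words in their RefSeq synonyms among the features with 1 gene. The words matched 0 protein kinase genes and 0 protein phosphatase genes, missing even the kinase genes and AT3G54930 described above. This search thus cannot tell whether the array holds other such genes, and these 2 groups could not be followed further. It gave 1 other calcium-binding gene, CML41. Genes named for calmodulin-binding IQ domains (IQD22 and iqd32), a glutamate receptor-like channel (GLR2.7) and a RALF-like signalling peptide (RALFL32) were added once the annotation had been read. Of these 5 genes 0 passed in limma at an adjusted p of 0.05 and 1, CML41, had an unadjusted p under 0.05. Over all features 12.8% passed and 1040 of 3439 had an unadjusted p under 0.05, so nothing particular to these 5 is read from the counts. Their log2 differences had a median of -0.13, against -0.06 over all features.

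CML41, a calmodulin-like gene as CML30 is, had a deposited intensity of 0.0944 to 0.402 in kn09 samples and 0.0559 to 0.332 in WT samples, with means of 0.250 ± 0.1 in kn09 and 0.198 ± 0.111 in WT (SD, n = 6 each). The genotypes overlapped widely. Its normalized log2 difference was 1.13 ± 0.39 (SE), with a limma adjusted p of 0.0791. With median scaling CML41 passed as higher, at a limma adjusted p of 0.0397, as 451 of 3439 features did. On the deposited scale GLR2.7 averaged 0.145 ± 0.0818 in kn09 and 0.322 ± 0.124 in WT, and RALFL32 averaged 0.204 ± 0.0656 in kn09 and 0.359 ± 0.0899 in WT (SD, n = 6 each). Their normalized log2 differences were -0.55 ± 0.33 and -0.13 ± 0.29 (SE), with limma adjusted p of 0.279 and 0.791. On the intensities as deposited both passed as lower, with limma adjusted p of 0.0364 and 0.0325, where the median of all features was -0.85. There 1158 of 3439 features were called lower and 99 higher, so nothing particular to these genes is read from it. IQD22 and iqd32 had deposited kn09 means of 0.0529 and 0.0641 and WT means of 0.0435 and 0.135, and their limma adjusted p were 0.635 and 0.930.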

How the data were processed

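The authors deposited a linear-scale intensity for every feature in every sample. The sources used here do not give how they scanned, corrected or scaled it. No intensity lies below 0, and 0 is read only as listed at 0. Precision is limited by the number of arrays.

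Intensities were quantile normalized between samples with limma 3.58.1 (R 4.3.3), zeros and values under the 1st percentile of positive values (an intensity of 0.0062) became that floor, and log2 was taken. None of the 5 genes was at the floor in any sample. All 3439 features were fitted with limma (lmFit, then eBayes; a 2-sided test of genotype with no other term), with Benjamini-Hochberg adjustment and a threshold of 0.05. The code was tested on simulated data. Log2 differences are kn09 minus WT, and SEs come from that fit.

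The members, lists and tests were chosen with earlier results of these data known. The genes named are the 5 genes, the 2 most alike of each, and the called and lowest-p genes of the 3 lists; IQD22, iqd32, GLR2.7 and RALFL32 were added. Names come from the platform annotation (692 features with 1 gene, 690 of them matched to RefSeq TAIR10.1 by Entrez identifier). Coordinates are not printed, since no source used here names the array's genome build. The alternatives changed the scaling, zeros, floor, filter, blocks, position and samples used.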

Additional observations from a re-analysis of the deposited data

Results flagged for a closer look

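Of 20 sets of 6 normalized values checked (5 genes and the 5 other signalling genes, in each genotype), 4 held a sample far from the others, where chance gives about 1 in 20. None of the 4 was a set of ATSIK, AT1G53050, AT2G31800, AT3G54930 or CML30. On the normalized log2 scale CML41 was at -2.81 in kn09 sample 2, and in the rest of kn09 between -1.77 and -1.15. GLR2.7 in WT sample 3 had -1.33, with the other WT samples between -2.21 and -2.0. For iqd32, kn09 sample 2 and WT sample 1 were listed at 0 and stood at the floor of -7.33, with the other kn09 samples between -3.84 and -2.55 and the other WT samples between -3.56 and -2.08.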

How the results depend on the processing

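Over 25 alternatives ATSIK, AT1G53050, AT2G31800 and CML30 kept their direction, and AT3G54930 did in 24. With median scaling AT3G54930 reversed to 0.0131, ATSIK was at 1.83 and CML30 at -0.70; CML30 was at -1.50 as deposited. With the running median of neighbours removed AT3G54930 was at -0.45 and CML30 at -0.76. Leaving out single samples gave 1.21 to 1.45 for ATSIK, 1.95 to 2.51 for AT1G53050, 1.44 to 2.13 for AT2G31800, -0.81 to -0.75 for AT3G54930 and -1.17 to -0.99 for CML30. The cause was not tested. Of all features, 440 were called (223 higher, 217 lower), 1257 as deposited (99 and 1158), 650 with median scaling (451 and 199), 480 with zeros as missing (144 and 336), 827 without WT samples 1 and 2, and 192 (without WT sample 3) to 507 without single samples; leaving out any sample but WT samples 1 and 2 moved the count by over 1.5 times. With consecutive samples as a random block 82 were called (3 of the 5 genes, without AT1G53050 and AT2G31800), and with their means 16, where limma called 0 of the 5 genes and 554 features had an unadjusted p under 0.05. Other calcium-binding genes gave 0 calls, and 1 (CML41) with median scaling or without WT samples 1 and 2. CML41 was also called with an offset of 0.05, as 587 features were. Among features above 0 in all samples it was called as well, as 547 of 2193 were. Single samples left out gave 0 to 1 calls, the 1 without WT sample 2. With the replicate number as a block 211 features were called and AT2G31800 was not; a block cannot move the log2 differences in this balanced design. Same-numbered samples deviated together only weakly (r 0.0683 to 0.0995), although 6 of 6 kn09 and 6 of 6 WT samples correlated best with their own number, a hint from the data and not the design. Leaving out WT sample 1 and kn09 sample 1 together, chosen after seeing the data, kept all 5 directions. The lists of protein kinase and phosphatase genes gave no value, as the words searched for matched no synonym, not even of the kinase genes and AT3G54930.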
